A study of Mus musculus with 8 samples.

Results

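The amino acid and integrated stress response, represented by 10 genes, was examined in skeletal muscle RNA-seq of 9-week-old male mice with or without LSD1, a histone demethylase, in myofibers. The genes were found in the count table by symbol, 1 row each and 10 of 27041 in all: the transcription factors Atf4, Atf5 and Ddit3, the pseudokinase Trib3, the enzymes Asns, Psat1, Phgdh and Chac1, and the secreted factors Fgf21 and Gdf15. Of these, 5 (Atf4, Atf5, Ddit3, Psat1 and Chac1) had a mean count above 50 over the libraries and were among the 11364 genes tested, while Trib3, Asns, Phgdh, Gdf15 and Fgf21 lay under that filter and are described by their reads.

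All mice were on the C57BL/6J strain and fed ad libitum. Control mice (Ctrl) carried loxP sites around the first exon of Kdm1a, the gene for LSD1, without Cre, and LSD1skm-/- mice carried the same floxed alleles with HSA-Cre, which is driven by the human skeletal actin promoter and acts in myofibers, so that other cells of the muscle keep the gene. The labels give the tissue as skeletal muscle and the study's methods as gastrocnemius. The table held 4 Ctrl libraries and 2 LSD1skm-/- libraries, with 30654828 to 41278769 counts each, and LSD1skm-/- replicates 3 and 4 were not analysed here.

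The integrated stress response is a signalling route on which several kinases converge when amino acids run short, unfolded proteins build up in the endoplasmic reticulum, heme is scarce or double-stranded RNA is present. Each kinase phosphorylates the translation factor eIF2 on its alpha subunit, which slows most protein synthesis and at the same time favours translation of mRNAs with upstream reading frames, ATF4 and ATF5 among them. ATF4 then pairs with other basic leucine zipper factors and activates genes for amino acid transport, amino acid synthesis and aminoacyl-tRNA charging, as well as CHOP (encoded by Ddit3), TRIB3 and CHAC1. In muscle the route is best known from mitochondrial disease and fasting, where the hormones FGF21 and GDF15 are its secreted products. Because ATF4 is set largely by translation, its mRNA level need not follow its activity.

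ATF4 and C/EBP factors bind together to a composite element with the letters TGATGNAA, so the promoters of the 10 genes were searched for it on both strands. RefSeq windows ran from 250 bases before to 50 bases after each start site (GRCm38.p6), and the 10 genes had 13 of them. A match was held by 4 of the 13, in Chac1, Asns, Fgf21 and Trib3, and by 3.97% of all 32851 windows. The cyclic AMP element TGACGTCA was present in 1.79% of all windows and in 0 of the 13, and the endoplasmic reticulum stress element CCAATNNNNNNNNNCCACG in 0.119% and in 0 of the 13. The upstream sequence of Chac1, the gene on which the comparison below turns, is printed with its match in capitals, and the matches of Asns and Fgf21 are shown for comparison. Each reads 5′ to 3′ on the strand of its gene, and capitals mark the element in either orientation.
Chac1, chr2:119350992-119351241, plus strand: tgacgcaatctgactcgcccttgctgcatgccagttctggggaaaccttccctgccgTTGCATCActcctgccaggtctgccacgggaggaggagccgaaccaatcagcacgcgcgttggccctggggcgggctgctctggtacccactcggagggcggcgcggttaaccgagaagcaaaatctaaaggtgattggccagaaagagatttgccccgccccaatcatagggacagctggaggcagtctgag
Asns, chr6:7693214-7693243, minus strand: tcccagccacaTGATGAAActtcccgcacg
Fgf21, chr7:45615611-45615640, minus strand: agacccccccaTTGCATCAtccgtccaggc
Chac1 and Fgf21 share the same 8 letters in the same orientation. By the RefSeq start sites, the match begins 193 bases before the start in Chac1, 139 before it in Fgf21 and 23 before it in Asns. In Trib3 it begins 14 bases after the RefSeq start. GENCODE, the source of the gene positions printed below, places the starts of Asns and Trib3 elsewhere. By its positions the Asns match lies inside the gene, which begins at chr6:7693254. The Trib3 match then lies before the gene, which begins at chr2:152344032. A match describes the letters and does not show that a factor binds there.

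The targeted gene was looked at first. Kdm1a (chr4:136550540-136602723, minus strand) had 22.95, 21.96 and 28.06 CPM (counts scaled to the TMM-normalized library size) in Ctrl replicates 1 to 3, 2.962 and 3.483 CPM in LSD1skm-/- replicates 1 and 2, and 3.658 CPM in the library labelled Ctrl replicate 4. The last value lies with the LSD1skm-/- libraries and against its label. The log2 fold change of Kdm1a, LSD1skm-/- against Ctrl, was -2.57 ± 0.74 (SE, edgeR adjusted p = 0.557) with all libraries and -2.91 ± 0.17 (adjusted p = 0.000579) without that library. On the first principal component of log2 CPM over the tested genes that library sat at 22.15, beside LSD1skm-/- at 22.15 and 25.43, while Ctrl replicates 1 to 3 sat between -25.19 and -21.41. The library labelled Ctrl replicate 4 was kept under its label, and each comparison is given with all 6 libraries and again without it. Skeletal muscle markers (8 of 8 genes, Acta1, Ckm and Myh4 among them) summed to 160700 to 178100 CPM in Ctrl replicates 1 to 3. Their sum was 153100 CPM in the library labelled Ctrl replicate 4 and 146700 to 152200 CPM in LSD1skm-/-. Myh4 was split in the same way, at 51340 to 57080 CPM, 39180 CPM and 35250 to 39800 CPM, while Acta1 and Ckm overlapped. Of the 8, 2 had an unadjusted p under 0.05 by edgeR with all libraries and 1 without that library, beside 8.9% and 20.2% of all genes tested. No pair of libraries agreed within counting noise. The lowest chi-square per degree of freedom, 32.9, was between the library labelled Ctrl replicate 4 and LSD1skm-/- replicate 1. Pairs among Ctrl replicates 1 to 3 had 33.16 to 40.81, and their pairs with the library labelled Ctrl replicate 4 had 67.77 to 95.38.

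The transcription factors at the core of the response did not differ past the test between LSD1skm-/- and Ctrl. Atf4 (chr15:80255184-80257541, plus strand), the central activator, stood at 248.6, 219.4 and 229.8 CPM in Ctrl replicates 1 to 3, at 220.9 CPM in the library labelled Ctrl replicate 4, and at 229.4 and 260.0 CPM in LSD1skm-/-. The groups overlapped, and the log2 fold change, LSD1skm-/- against Ctrl, was 0.09 ± 0.11 (SE) with a 95% interval of -0.16 to 0.34 over all libraries and 0.08 ± 0.11 (-0.18 to 0.33) without the library labelled Ctrl replicate 4. Neither was past the threshold, with adjusted p of 0.79 and 0.747 in edgeR's quasi-likelihood fit after Benjamini-Hochberg correction over the genes tested. In bulk muscle, fewer cells of a type and less RNA per cell cannot be told apart, for this and for every gene below.

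Atf5 (chr7:44812256-44816658, minus strand), whose mRNA is translated under stress in the same manner, had 80.24, 78.98 and 80.93 CPM in Ctrl replicates 1 to 3 and 68.29 CPM in the library labelled Ctrl replicate 4, against 77.19 and 88.98 CPM in LSD1skm-/-. The 3 Ctrl libraries lay within 2 CPM of each other, and the LSD1skm-/- libraries fell on both sides of them. The log2 fold change of Atf5 was 0.11 ± 0.12 (SE) with all libraries and 0.06 ± 0.10 without the library labelled Ctrl replicate 4, and edgeR's adjusted p was 0.769 and 0.804. Exons of Nup62 and Il4i1 overlap those of Atf5 on the opposite strand over 82 bases, 4.11% of its exon length, and whether the counting used strand is not stated.

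Ddit3 (chr10:127290774-127296288, plus strand) encodes CHOP, which carries the response towards cell death when stress persists. It had 11.95, 10.87 and 11.25 CPM in Ctrl replicates 1 to 3, 7.841 CPM in the library labelled Ctrl replicate 4, and 9.389 and 10.10 CPM in LSD1skm-/-. The LSD1skm-/- values lay below the first 3 Ctrl values and above the fourth. The log2 fold change of Ddit3 was -0.10 ± 0.18 (SE) over all libraries and -0.22 ± 0.12 without the library labelled Ctrl replicate 4, with edgeR's adjusted p of 0.86 and 0.347. Mars overlaps Ddit3 on the opposite strand over 3.97% of its exon bases.

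Trib3 (chr2:152337422-152344032, minus strand), a pseudokinase that binds ATF4 and AKT and is induced late in the response, was read at a low level. Its CPM was 1.186, 0.8933 and 1.130 in Ctrl replicates 1 to 3, 1.349 in the library labelled Ctrl replicate 4, and 0.6932 and 1.303 in LSD1skm-/-, from 22 to 59 reads a library. The 2 LSD1skm-/- libraries differed from each other by more than Ctrl replicates 1 to 3 did, and the groups overlapped. Pooled reads, 71 in LSD1skm-/- against 168 in Ctrl, gave a depth-adjusted ratio of 0.885 with an exact 95% interval of 0.661 to 1.17. As for the other ratios of pooled reads, that interval covers counting error only and not the spread between mice.

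**Figure D1:**
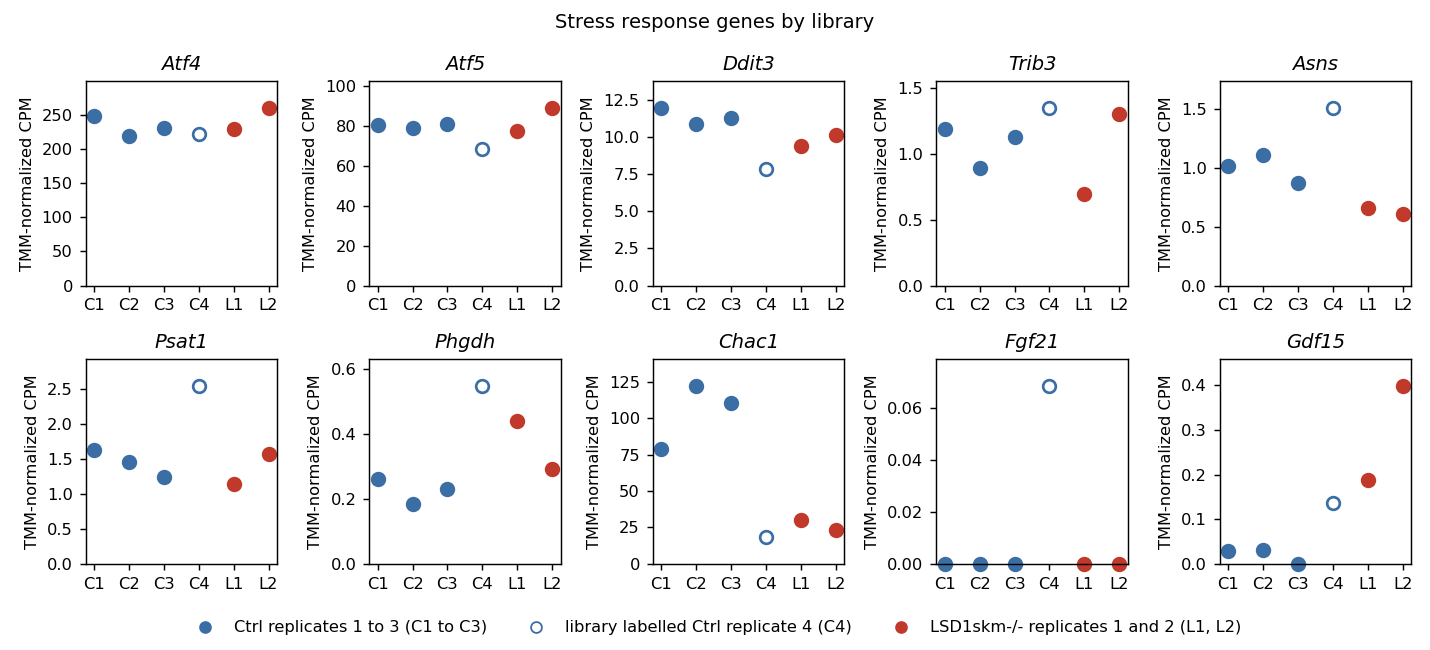
TMM-normalized CPM (y axis, linear, starting at 0 in each panel) of the 10 genes in each library (x axis): Ctrl replicates 1 to 3 (filled blue), the library labelled Ctrl replicate 4 (open blue) and LSD1skm-/- replicates 1 and 2 (red). Chac1 separates Ctrl replicates 1 to 3 (79.23 to 122.2 CPM) from the other 3 libraries (18.56 to 30.22 CPM), while Atf4 stays between 219.4 and 260.0 CPM in all of them.

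The enzymes of amino acid synthesis were near the lower limit of what these libraries read. Asns (chr6:7675169-7693254, minus strand), which makes asparagine from aspartate and glutamine, had 1.013, 1.109 and 0.8696 CPM in Ctrl replicates 1 to 3, 1.509 CPM in the library labelled Ctrl replicate 4, and 0.6617 and 0.6115 CPM in LSD1skm-/-. Both LSD1skm-/- values lay below every Ctrl value, with or without the library labelled Ctrl replicate 4, which was the highest, a separation also seen in 17.8% and 37.7% of all genes tested. Pooled reads of Asns, 44 in LSD1skm-/- against 167 in all Ctrl libraries, gave a ratio of 0.552 (exact 95% interval 0.387 to 0.773), and against the 101 reads of Ctrl replicates 1 to 3 the ratio was 0.638 (0.437 to 0.917). When every gene with at least 1 count was fitted, the log2 fold change of Asns was -0.84 ± 0.40 (SE; edgeR adjusted p = 0.603) with all libraries and -0.65 ± 0.39 (adjusted p = 0.511) without the library labelled Ctrl replicate 4. With genes of a mean count above 10 fitted, it was -0.82 with all libraries (edgeR unadjusted p = 0.0363, adjusted p = 0.577). Without the library labelled Ctrl replicate 4 that fit gave -0.65 (edgeR unadjusted p = 0.0639, adjusted p = 0.292). The difference in Asns therefore did not pass the adjusted threshold in either fit.

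Psat1 and Phgdh catalyse consecutive steps of serine synthesis. Psat1 (chr19:15904678-15947337, minus strand) had 1.620, 1.448 and 1.246 CPM in Ctrl replicates 1 to 3, 2.538 CPM in the library labelled Ctrl replicate 4, and 1.134 and 1.569 CPM in LSD1skm-/-. Apart from that one library the groups overlapped, and the gene passed the count filter through its 111 reads there, the other libraries holding 36 to 59. The log2 fold change of Psat1 was -0.34 ± 0.34 (SE, adjusted p = 0.751) with all libraries and -0.08 ± 0.25 (adjusted p = 0.886) without the library labelled Ctrl replicate 4, both by edgeR.

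Phgdh (chr3:98313170-98339990, minus strand), which opens the serine pathway, had 0.2604, 0.1848 and 0.2319 CPM in Ctrl replicates 1 to 3, 0.5487 CPM in the library labelled Ctrl replicate 4, and 0.4411 and 0.2924 CPM in LSD1skm-/-. The LSD1skm-/- values lay above the first 3 Ctrl values and below the fourth. The pooled ratio was 1.59 (exact 95% interval 0.867 to 2.93) against Ctrl replicates 1 to 3, on 25 and 23 reads, and 1.11 (0.657 to 1.85) against all Ctrl libraries. The level of Phgdh is uncertain. Of the 50-base stretches of its transcripts, the length of the reads, 47.8% also occur in other genes, most of all in Gm7901. The paper kept uniquely aligned reads only, so reads of such stretches may be missing from the Phgdh counts.

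Asns, Psat1, Phgdh, Trib3 and Fgf21 all had their highest value in the library labelled Ctrl replicate 4. Adipocyte markers (Adipoq, Plin1, Cfd, Cidec, Lep, Retn and Fabp4) were also highest there, 7 of 7, none of them at 0 in any library. Their summed level was 491.5 CPM in that library, 171.9 to 351.4 CPM in Ctrl replicates 1 to 3 and 166.2 to 177.5 CPM in LSD1skm-/-. Most of that sum was Fabp4, and the other 6 differed more. Adipoq had 12.79, 9.703 and 0.7826 CPM in Ctrl replicates 1 to 3, 19.57 CPM in the library labelled Ctrl replicate 4, and 0.126 and 0.5583 CPM in LSD1skm-/-, with Ctrl replicate 3 close to LSD1skm-/-. Of the 6 adipocyte genes tested, 5 had an unadjusted p under 0.05 by edgeR in both comparisons, beside 8.9% and 20.2% of all genes tested. Endothelial markers were highest there as well in 5 of 5 genes, with a sum of 197.4 CPM against 148.2 to 167.6 CPM in Ctrl replicates 1 to 3 and 127.6 to 130.4 CPM in LSD1skm-/-. Of these 5, 2 had an unadjusted p under 0.05 by edgeR in both comparisons. The part of these cell types in the levels of the 5 genes was not tested.

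Chac1 had the largest log2 fold change of the 5 genes tested. Chac1 (chr2:119351229-119354381, plus strand, 1 annotated transcript of 3 exons) encodes a gamma-glutamylcyclotransferase that degrades glutathione and is a late target of ATF4 and CHOP. It had 79.23, 122.2 and 110.4 CPM in Ctrl replicates 1 to 3, 18.56 CPM in the library labelled Ctrl replicate 4, and 30.22 and 23.61 CPM in LSD1skm-/-. Ctrl replicates 1 to 3 lay far above the other 3 libraries, and the library labelled Ctrl replicate 4 held the lowest value of all. The mean was 103.9 ± 22.2 CPM (SD, n = 3) in Ctrl replicates 1 to 3, 82.6 ± 46.4 CPM (SD, n = 4) with the fourth, and 26.91 ± 4.67 CPM (SD, n = 2) in LSD1skm-/-.

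With all libraries, the log2 fold change of Chac1 was -1.62 ± 0.65 (SE, 95% interval -3.14 to -0.10), and the unadjusted p of 0.0397 became an adjusted p of 0.557 by edgeR's quasi-likelihood test. DESeq2 gave an adjusted p of 0.48, and edgeR gave 0.0408 when every gene with at least 1 count was fitted. That last fit also called Atf3 (edgeR adjusted p = 0.0456), whose groups overlapped, so the call of Chac1 there is weak. Without the library labelled Ctrl replicate 4, Chac1 fell by 1.95 ± 0.21 (SE) on the log2 scale, which is 3.86-fold lower in LSD1skm-/- (95% interval 2.73 to 5.45), with an adjusted p of 0.00392, a threshold passed by 5.39% of all genes tested. Among the 11364 genes tested its log2 fold change was then the 37th lowest. When LSD1skm-/- replicate 2 was also left out, the log2 fold change was -1.78 and the adjusted p 0.0507, in a fit that leaves 1 LSD1skm-/- library and assumes that it varies like the 3 Ctrl libraries.

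**Figure D2:**
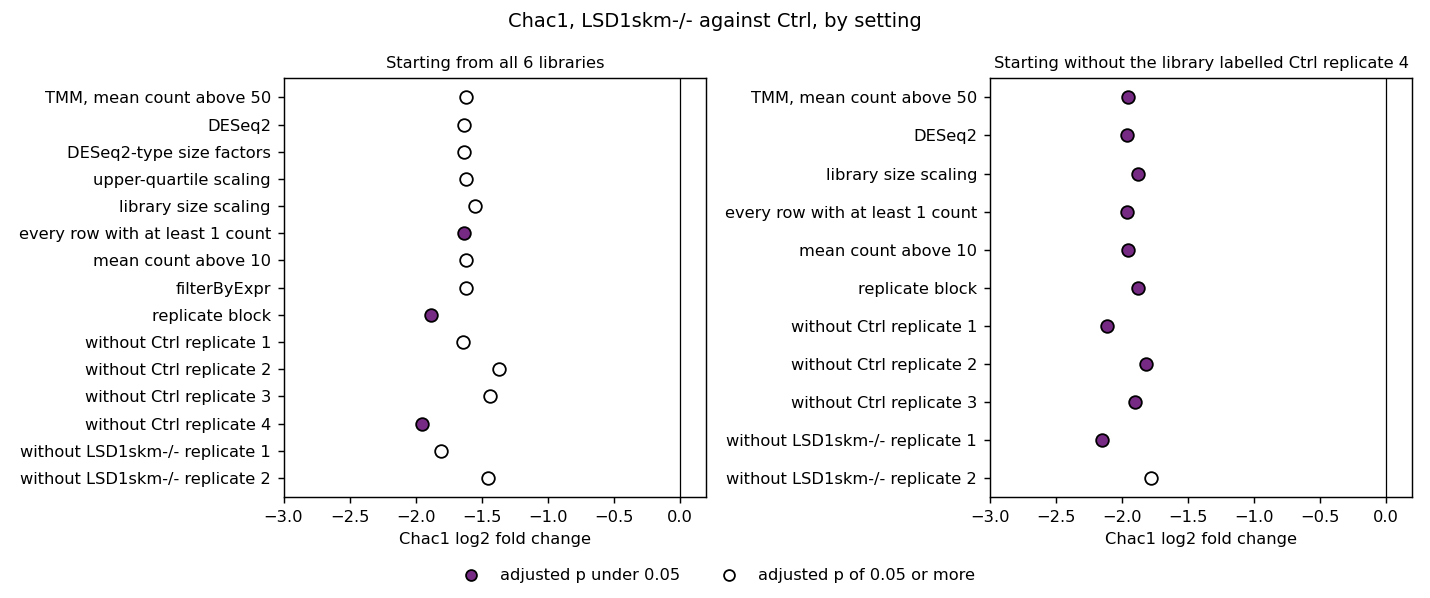
Log2 fold change of Chac1 (x axis) under each processing setting (y axis), starting from all 6 libraries (left) and without the library labelled Ctrl replicate 4 (right). Points lie between -1.95 and -1.37 on the left and between -2.15 and -1.78 on the right, and filled points have an adjusted p under 0.05.

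The marker lists of other cell types are given beside Chac1, and their part in its level was not tested. Fibroblast markers (6 genes, none at 0) set the library labelled Ctrl replicate 4 with LSD1skm-/- as Chac1 did, in the opposite direction, with sums of 430 to 475.8 CPM in Ctrl replicates 1 to 3, 699.2 CPM in the library labelled Ctrl replicate 4 and 607.7 to 717.4 CPM in LSD1skm-/-. Of these 6, 3 had an unadjusted p under 0.05 by edgeR with all libraries and 6 without that library, beside 8.9% and 20.2% of all genes tested. Blood markers (Hba-a1, Hbb-bs and Alas2, none at 0) summed to 22.95 to 35.39 CPM, 41.97 CPM and 52.37 to 52.43 CPM in the same order, and 3 of 3 had an unadjusted p under 0.05 by edgeR in both comparisons. Slow-twitch fiber markers (6 genes, none at 0) summed to 820.5 to 1675 CPM, 935.8 CPM and 311.8 to 653.6 CPM, so that the library labelled Ctrl replicate 4 lay with the other Ctrl libraries, unlike for Chac1. An unadjusted p under 0.05 by edgeR was found for 5 of these 6 in both comparisons. The sums of macrophage markers (35.71 to 90.87 CPM) and Schwann cell markers (24.61 to 102.9 CPM) overlapped between LSD1skm-/- and Ctrl replicates 1 to 3, and satellite cell markers summed to 3.212 to 4.493 CPM in Ctrl replicates 1 to 3, 7.087 CPM in the library labelled Ctrl replicate 4 and 4.918 to 7.058 CPM in LSD1skm-/-. At an unadjusted p under 0.05 by edgeR there was 1 of 6 macrophage genes in both comparisons and 0 of 3 tested Schwann cell genes. Of 2 satellite cell genes tested, 0 had such a p with all libraries and 1 without the library labelled Ctrl replicate 4. The 2 liver genes measured were at or near 0 in each library. Of the tested neighbours of Chac1 on chromosome 2, Dll4, a Notch ligand 15267 bases before it, had a log2 fold change of -0.61 with all libraries. Without the library labelled Ctrl replicate 4 that of Dll4 was -0.68 ± 0.16 (SE, edgeR adjusted p = 0.0537). Vps18 before Chac1, and Ino80 and Exd1 after it, then had log2 fold changes of 0.19, -0.21 and 0.01 and adjusted p of 0.443, 0.533 and 0.983. With all libraries these log2 fold changes were 0.18, -0.13 and 0.003.

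The secreted factors were represented by few or no reads. Gdf15 (chr8:70629393-70632456, minus strand), a hormone that acts on the brainstem to lower appetite, had 1, 1 and 0 reads in Ctrl replicates 1 to 3, 6 in the library labelled Ctrl replicate 4, and 6 and 15 in LSD1skm-/-. The levels were 0.02894, 0.0308, 0 and 0.1372 CPM in Ctrl and 0.189 and 0.3988 CPM in LSD1skm-/-, so that both LSD1skm-/- libraries lay above all Ctrl libraries, beside 17.8% of all genes tested with groups apart in either direction (37.7% without the library labelled Ctrl replicate 4). Pooled, 21 reads against 8 gave a ratio of 5.5 (exact 95% interval 2.34 to 14.4), and against the 2 reads of Ctrl replicates 1 to 3 a ratio of 15.4 (3.76 to 135). With every gene holding at least 1 count in the fit, the adjusted p of Gdf15 by edgeR was 0.275 over all libraries and 0.00327 without the library labelled Ctrl replicate 4. Without that library, the same fit gave Atf3, described below, an adjusted p of 2.46e-22 by edgeR although its groups overlapped. Its small adjusted p-values are therefore not a sound guide. The size of the difference in Gdf15 rests on these few reads.

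Fgf21 (chr7:45613886-45615490, minus strand), a hormone of fasting and mitochondrial stress, had 3 reads in the library labelled Ctrl replicate 4, or 0.06858 CPM, and 0 reads in the other 5. A count of 0 allows up to 3 reads, which is 0.0798 to 0.0945 CPM at the depth of those 5 libraries. Fgf21 was therefore not detectable at this depth in LSD1skm-/- muscle, and no fold is given.

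Per length, the 10 genes spanned a wide range. With CPM divided by the length of each gene's merged exons in kilobases (RPKM), the median over the libraries was 97.4 for Atf4, 40 for Atf5, 33.5 for Chac1 and 6.12 for Ddit3. It was 0.545 for Trib3, 0.355 for Psat1, 0.344 for Asns, 0.111 for Phgdh, 0.0454 for Gdf15 and 0 for Fgf21. Trib3 (0.326 to 0.635), Psat1 (0.267 to 0.597) and Asns (0.224 to 0.552) overlapped in RPKM over the libraries and cannot be ordered. Chac1, from 11.3 to 74.6 RPKM, crossed the range of Atf5, 34.3 to 44.6 RPKM, lying above it in Ctrl replicates 1 to 3 and below it in the other 3 libraries.

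Counted together, 2 of the 5 tested genes were higher and 3 lower in LSD1skm-/-, with a median log2 fold change of -0.10 over all libraries and -0.08 without the library labelled Ctrl replicate 4, against -0.008 and -0.006 over all genes tested. With all libraries, 0 of the 5 passed an adjusted p of 0.05 by edgeR, and so did 0 of all genes (0%), while 1 of the 5 and 1011 genes (8.9%, with 5.02% higher and 3.88% lower) had an unadjusted p under 0.05. DESeq2 called 46 genes and 0 of the 5. Without the library labelled Ctrl replicate 4, 1 of the 5 passed the adjusted threshold beside 5.39% of all genes, and 1 had an unadjusted p under 0.05 beside 20.2% (12.5% higher and 7.72% lower). Groups that did not overlap were found for 0 of the 5 with all libraries and for Ddit3 and Chac1 without the library labelled Ctrl replicate 4, beside 17.8% and 37.7% of all genes tested. Among the 5 genes under the filter, Asns and Gdf15 did not overlap in either case, and Phgdh did not once that library was left out.

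**Figure D3:**
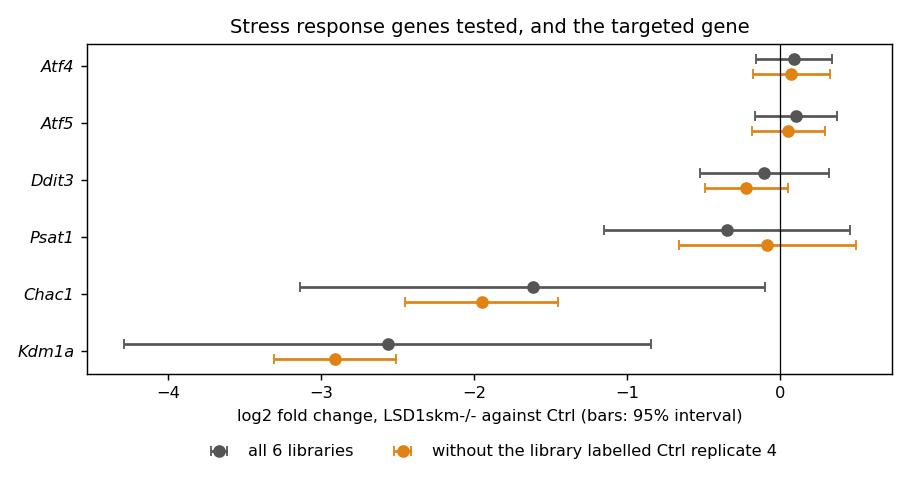
Log2 fold change, LSD1skm-/- against Ctrl (x axis; bars, 95% interval), of the 5 tested stress response genes and of the targeted gene Kdm1a, with all 6 libraries (grey) and without the library labelled Ctrl replicate 4 (orange). Intervals of Atf4, Atf5, Ddit3 and Psat1 include 0 in both comparisons, and those of Chac1 lie below 0.

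The genes most like Atf4 over the 6 libraries, by the root mean square difference of log2 CPM centred on each gene's mean, were Ndufb2 (0.0188), Pgls (0.0235) and Bcas2 (0.0245), each as flat as Atf4 itself. Those most like Chac1, whose log2 CPM had the widest range (2.72) of the 5 tested genes, were the histone genes H1f4 (0.332), H2bc6 (0.34) and H4c9 (0.394). H1f4, a linker histone, had 4.051, 3.481 and 4.841 CPM in Ctrl replicates 1 to 3, 0.5715 CPM in the library labelled Ctrl replicate 4, and 0.7562 and 0.7444 CPM in LSD1skm-/-. With all libraries, the log2 fold change was -2.1 for H1f4, -1.49 for H2bc6 and -1.62 for H4c9. Without the library labelled Ctrl replicate 4, it was -2.45 for H1f4, -1.82 for H2bc6 and -1.92 for H4c9, with edgeR's adjusted p of 0.00299, 0.00444 and 0.00444. The choice of genes by their likeness to Chac1 fixes the direction of these differences, which are given as a description. Histone genes have near-identical copies and their main transcripts lack a poly(A) tail, so their counts in poly(A)-selected RNA are uncertain.

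The other genes of the pathway were taken as a list of 134 genes in 9 roles, of which 124 were tested. Over all libraries 72 were higher and 52 lower in LSD1skm-/- with a median log2 fold change of 0.04. By edgeR, 7 and 4 had an unadjusted p under 0.05, 8.87% of the list beside 8.9% of all genes tested. The adjusted threshold was passed by 0 with edgeR. With DESeq2 it was passed by 2, Hmox1 and Slc7a2, beside 46 of all genes tested. Without the library labelled Ctrl replicate 4, 68 were higher and 56 lower with a median of 0.04, 17 and 10 had an unadjusted p under 0.05, 21.8% of the list beside 20.2% of all genes tested. The adjusted threshold was passed by 6, 5 higher and 1 lower, which is 4.84% beside 5.39%. The list as a whole was thus called about as often as all genes, though the roles differed. The counts by role below are to be read beside the same shares. The 6 were Slc7a2, Slc7a1, Shmt1, Aldh18a1, Gadd45b and Hmox1.

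Upstream of ATF4, 0 genes of the machinery that senses and relays stress passed edgeR's adjusted threshold, in either comparison. The 4 eIF2 alpha kinases had log2 fold changes from -0.24 to 0.07 over all libraries, 1 higher and 3 lower, and 0 of them had an unadjusted p under 0.05 by edgeR in either comparison. Of 11 subunits of eIF2, eIF2B and the eIF2 alpha phosphatases, 1 had an unadjusted p under 0.05 without the library labelled Ctrl replicate 4 and 0 with it. That gene was Ppp1r15a, encoding GADD34, the stress-induced phosphatase subunit that resets the pathway, with 28.61 ± 0.741 CPM (SD, n = 3) in Ctrl replicates 1 to 3, 19.02 CPM in the library labelled Ctrl replicate 4 and 23.69 ± 0.179 CPM (SD, n = 2) in LSD1skm-/-. The log2 fold change of Ppp1r15a was -0.14 with all libraries and -0.27 without that library, and edgeR's adjusted p was 0.802 and 0.171.

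Of 9 partner transcription factors tested, 6 were higher and 3 lower over all libraries, and Atf3 had an unadjusted p under 0.05 in both comparisons. Atf3, an early stress-induced repressor, varied widely within groups, with 22.25, 71.84 and 31.42 CPM in Ctrl replicates 1 to 3, 37.36 CPM in the library labelled Ctrl replicate 4, and 22.78 and 6.248 CPM in LSD1skm-/-. The groups overlapped, and the log2 fold change of -1.49 (adjusted p = 0.557) over all libraries and -1.53 (adjusted p = 0.239) without the library labelled Ctrl replicate 4 did not pass edgeR's adjusted threshold.

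Of the aminoacyl-tRNA synthetases, a class that includes ATF4 targets, 0 passed edgeR's adjusted threshold. An unadjusted p under 0.05 was found for 1 with all libraries and 2 without the library labelled Ctrl replicate 4. Of 20 tested, 5 were higher and 15 lower in both comparisons, with a median log2 fold change of -0.07 over all libraries and -0.08 without the library labelled Ctrl replicate 4, beside 48.6% and 49% of all genes higher. Eprs, the glutamyl-prolyl-tRNA synthetase, was the lowest, at 246.3 ± 16.3 CPM (SD, n = 3) in Ctrl replicates 1 to 3, 183.9 CPM in the library labelled Ctrl replicate 4 and 177.5 ± 22.2 CPM (SD, n = 2) in LSD1skm-/-. Its log2 fold change was -0.38 with all libraries and -0.47 without that library, with edgeR's adjusted p of 0.557 and 0.075.

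**Figure D4:**
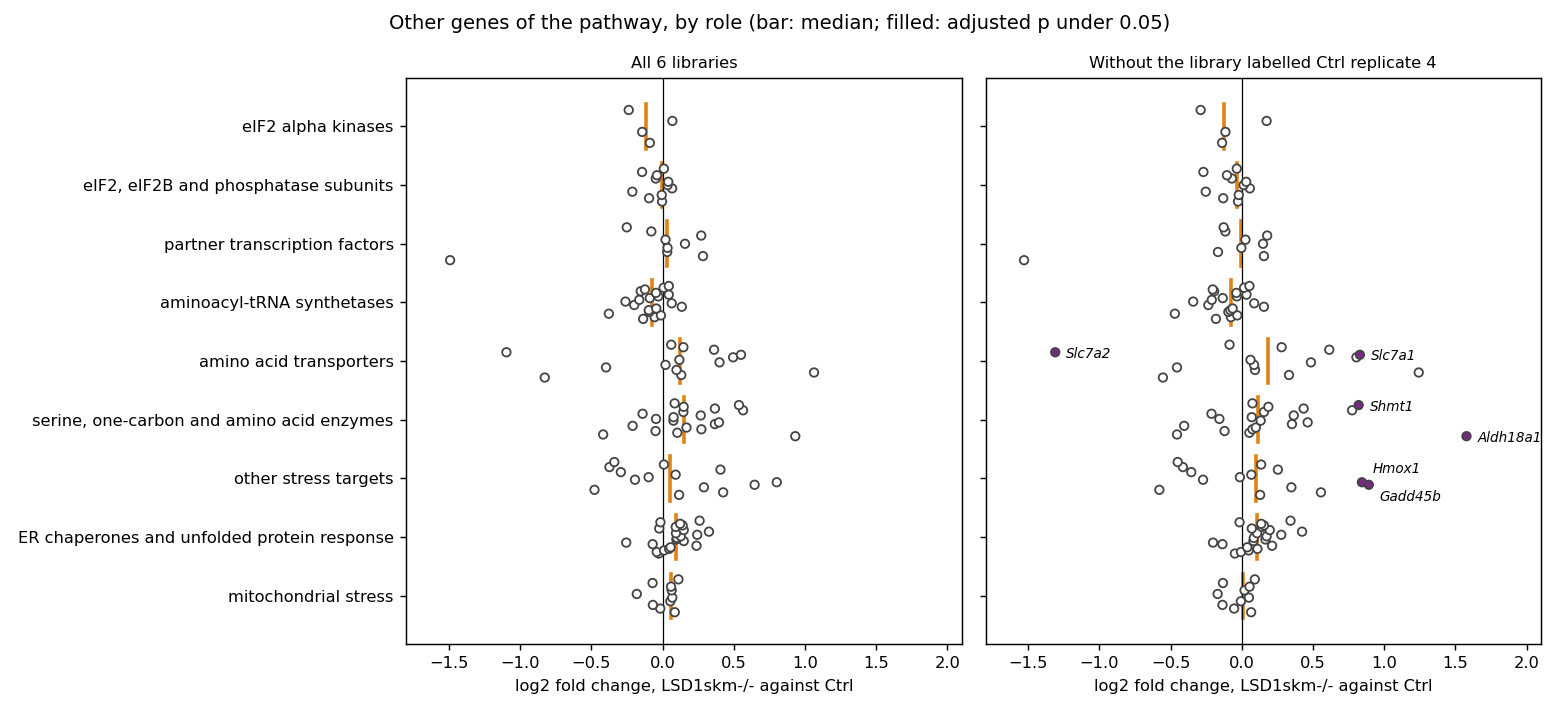
Log2 fold change, LSD1skm-/- against Ctrl (x axis), of each tested gene of the pathway list by role (y axis), with all 6 libraries (left) and without the library labelled Ctrl replicate 4 (right). Orange bars are role medians, which lie between -0.12 and 0.15 on the left, and the 6 filled and named points on the right have an adjusted p under 0.05.

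Among amino acid transporters, a pair of cationic carriers moved in opposite directions. Slc7a2, which takes up arginine, lysine and ornithine, had 194.7, 192.7 and 211.2 CPM in Ctrl replicates 1 to 3, 89.11 CPM in the library labelled Ctrl replicate 4, and 84.88 and 75.80 CPM in LSD1skm-/-. Slc7a1, the more widely expressed carrier of the same amino acids, had 3.154, 2.772 and 3.101 CPM, then 5.51 CPM, and 5.073 and 5.610 CPM in the same order. Without the library labelled Ctrl replicate 4, Slc7a2 fell by 1.31 ± 0.11 (SE) on the log2 scale (adjusted p = 0.00167) and Slc7a1 rose by 0.83 ± 0.16 (adjusted p = 0.0315) by edgeR. With all libraries their log2 fold changes were -1.10 (edgeR adjusted p = 0.557) and 0.55 (adjusted p = 0.572). By DESeq2 with all libraries, the adjusted p was 0.0482 for Slc7a2 and 0.623 for Slc7a1. Of the 14 transporters tested, 11 were higher and 3 lower over all libraries, and 10 and 4 without that library. An unadjusted p under 0.05 by edgeR was found for 28.6% of them with all libraries and 50% without that library. The shares of all genes tested were 8.9% and 20.2%.

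Serine, one-carbon and amino acid enzymes were higher in 15 of 20 tested genes in both comparisons, with a median log2 fold change of 0.15 over all libraries and 0.12 without the library labelled Ctrl replicate 4. In the same order, 15% and 30% of them had an unadjusted p under 0.05 by edgeR, beside 8.9% and 20.2% of all genes. Shmt1, the cytosolic serine hydroxymethyltransferase, had 8.825, 9.765 and 8.609 CPM in Ctrl replicates 1 to 3, 16.80 CPM in the library labelled Ctrl replicate 4, and 15.06 and 16.91 CPM in LSD1skm-/-. Aldh18a1, which makes the precursor of proline and ornithine from glutamate, had 4.803, 6.469 and 3.044 CPM, then 15.29 CPM, and 13.14 and 15.26 CPM. For both genes the library labelled Ctrl replicate 4 lay with LSD1skm-/-. Without it, Shmt1 rose by 0.82 ± 0.12 (SE, adjusted p = 0.0105) and Aldh18a1 by 1.58 ± 0.27 (adjusted p = 0.0187) on the log2 scale by edgeR, and with it the adjusted p was 0.569 and 0.608. Got2, the mitochondrial aspartate aminotransferase, had 187.2 ± 16.7 CPM (SD, n = 3) in Ctrl replicates 1 to 3, 221.5 CPM in the library labelled Ctrl replicate 4 and 257.5 ± 13.8 CPM (SD, n = 2) in LSD1skm-/-. Its log2 fold change was 0.40 (edgeR adjusted p = 0.557) with all libraries and 0.46 (adjusted p = 0.0582) without that library.

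Of 14 other stress targets tested, 8 were higher and 6 lower in both comparisons, and Hmox1 and Gadd45b passed the adjusted threshold without the library labelled Ctrl replicate 4. An unadjusted p under 0.05 by edgeR was found for 14.3% of them with all libraries and 50% without that library. Of all genes tested, 8.9% and 20.2% had such a p. Hmox1, which degrades heme and is also a target of NRF2, had 10.94, 10.63 and 9.565 CPM in Ctrl replicates 1 to 3, 11.52 CPM in the library labelled Ctrl replicate 4, and 20.80 and 16.40 CPM in LSD1skm-/-. Here all 4 Ctrl libraries lay together and below LSD1skm-/-. With all libraries the log2 fold change of Hmox1 was 0.80 ± 0.14 (SE), with edgeR's unadjusted p of 0.000428 and adjusted p of 0.557. DESeq2 gave Hmox1 an adjusted p of 0.00601 with all libraries. Without the library labelled Ctrl replicate 4, Hmox1 rose by 0.84 ± 0.14 (edgeR adjusted p = 0.017). Gadd45b, a growth arrest and DNA damage gene, had 24.71 ± 2.33 CPM (SD, n = 3), 42.8 CPM in the library labelled Ctrl replicate 4 and 45.78 ± 3.61 CPM (SD, n = 2) in LSD1skm-/-, and rose by 0.89 ± 0.12 (adjusted p = 0.00676) without that library. With all libraries its log2 fold change was 0.65 (edgeR adjusted p = 0.557). The blood markers given beside Chac1 were also highest in LSD1skm-/-, and their part in Hmox1 and the other genes that rose was not tested.

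With 1 more library left out, 5 of these 6 calls were lost in at least 1 case while the log2 fold changes kept most of their size. Leaving out a LSD1skm-/- library leaves 1, which is assumed to vary like the Ctrl libraries. Without LSD1skm-/- replicate 2, the log2 fold changes of Gadd45b and Shmt1 were 0.81 and 0.73, with adjusted p of 0.0659 and 0.0885. Hmox1 had 0.88 without Ctrl replicate 1 (adjusted p = 0.0527) and 0.65 without LSD1skm-/- replicate 1 (adjusted p = 0.0838). Aldh18a1 had 1.58, 1.67 and 1.46 without Ctrl replicate 1, LSD1skm-/- replicate 1 and LSD1skm-/- replicate 2, with adjusted p of 0.0639, 0.0778 and 0.148. Slc7a1 lost its call whichever library was left out, at log2 fold changes of 0.75 to 0.89 and adjusted p of 0.0526 to 0.192. Slc7a2 kept an adjusted p of at most 0.0254 under each alternative run without the library labelled Ctrl replicate 4.

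**Figure D5:**
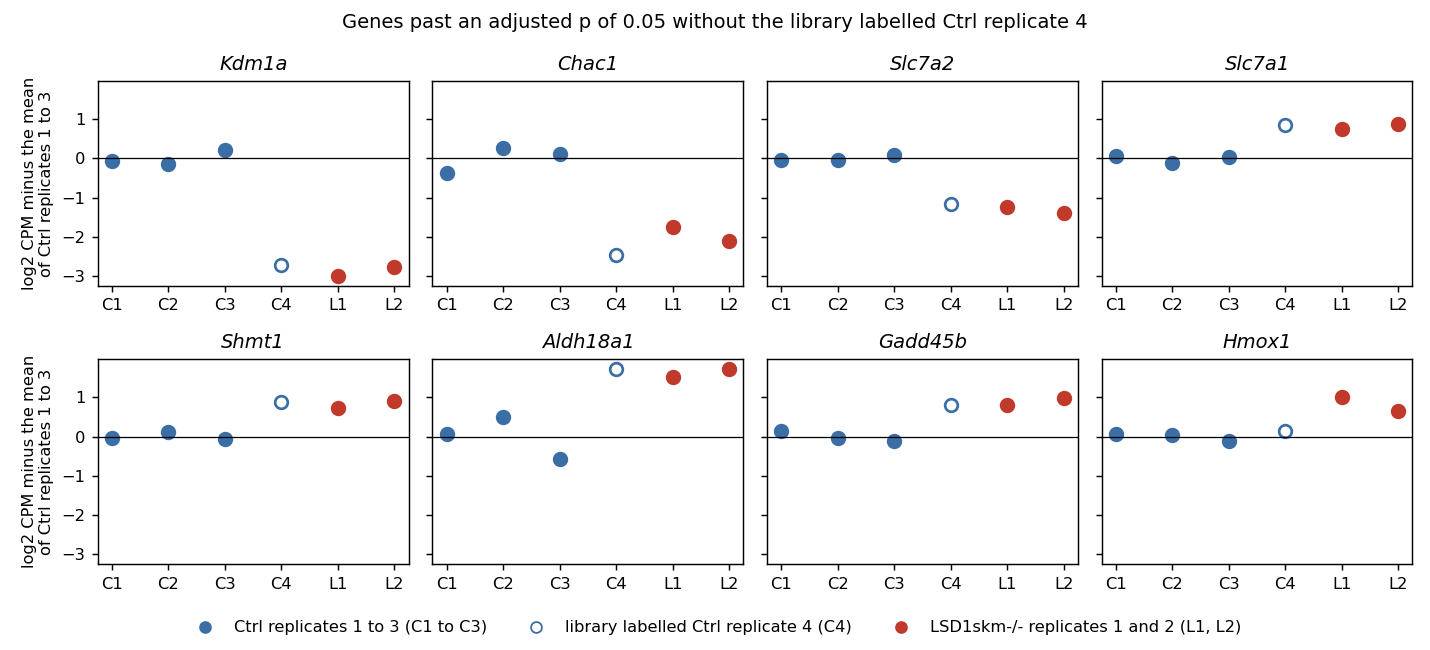
Log2 CPM minus the mean of Ctrl replicates 1 to 3 (y axis, the same in each panel) by library (x axis) for Kdm1a, Chac1 and the 6 pathway genes past an adjusted p of 0.05 without the library labelled Ctrl replicate 4. The open point of that library lies with the red LSD1skm-/- points for each gene shown but Hmox1, where it lies with Ctrl replicates 1 to 3.

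Genes of the endoplasmic reticulum and of mitochondrial stress completed the list. Of 22 chaperones and unfolded protein response genes, 16 were higher over all libraries and 17 without the library labelled Ctrl replicate 4, with median log2 fold changes of 0.09 and 0.11, and 0 passed edgeR's adjusted threshold, with 0 and 3 (13.6%, beside 20.2% of all genes) at an unadjusted p under 0.05. Manf, a secreted protein induced by endoplasmic reticulum stress, had 12.72 ± 1.57 CPM (SD, n = 3) in Ctrl replicates 1 to 3, 16.16 CPM in the library labelled Ctrl replicate 4 and 17.02 ± 1.84 CPM (SD, n = 2) in LSD1skm-/-. Its log2 fold change was 0.33 (edgeR adjusted p = 0.569) with all libraries and 0.42 (adjusted p = 0.152) without that library. The 10 mitochondrial stress genes had log2 fold changes between -0.18 and 0.11 over all libraries, and 0 had an unadjusted p under 0.05 in either comparison.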

How the data were processed

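Poly(A) RNA of muscle was sequenced in single-end reads of 50 bases with an Illumina stranded kit. The deposited table holds raw counts per gene symbol, made by the authors. The submitters' processing notes name bcl2fastq 2.20.0.422 and mm10, the paper names htseq-count and HOMER, and the aligner and the strand setting of the counting are not given in the sources used here. Of 27041 symbols, 29 rows share a symbol with another. The labels list 8 libraries, 6 of which have a column.

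Counts were tested with edgeR 4.0.16 (quasi-likelihood test, TMM scaling, limma 3.58.1, R 4.3.3) on 11364 genes with a mean count above 50, with Benjamini-Hochberg adjustment over them all, and with DESeq2 1.42.0 as an alternative, along with other scalings, filters, a replicate block and each library left out. Log2 CPM used a prior count of 2. Intervals are 95%. No label says that the libraries come from separate mice, so p-values measure the spread between these libraries. The script was tested on simulated data with less spread between libraries than these data hold, so that test does not describe the fits here. Gene positions are from GENCODE vM21 on GRCm38 (mm10), and promoters from RefSeq on GRCm38.p6.

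The 10 genes and all lists were chosen with earlier results of these data known. Named genes are the 10, Kdm1a, in each role the pathway gene with the largest change among those with an unadjusted p under 0.05 in either comparison, each pathway gene past the adjusted threshold, and the 3 genes most like Atf4 and Chac1.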

Additional observations from a re-analysis of the deposited data

Results flagged for a closer look

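In 4 of 20 genes examined, 1 of the 4 Ctrl libraries stood apart, by a gap to its nearest neighbour whose share of the whole range of log2 CPM exceeded Dixon's 95% critical value, where chance gives about 1 such gene in 20 among genes not chosen by their values. Several of the 20 were named for a low p once Ctrl replicate 4 had been left out, so that share does not apply to them. The library standing apart was the one labelled Ctrl replicate 4 each time. The gap was 0.857 of the range for Atf5, 0.879 for Kdm1a, 0.891 for Ppp1r15a and 0.893 for Slc7a2, and in all of them that library held the lowest Ctrl value.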

How the results depend on the processing

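Over all libraries, where edgeR called 0 genes, 0 of the 10 stress response genes and 0 of the pathway list, DESeq2 called 46, 0 and 2, and fitting every row with at least 1 count 149, 1 and 4. The replicate block called 632, 1 and 8. Ctrl replicates 3 and 4 have no LSD1skm-/- library of the same number in the table, so neither bears on the group difference in that fit. The fit has almost as many terms as libraries, so its calls rest on little information about spread. The log2 fold change of Chac1 in that fit was -1.88 with and without the library labelled Ctrl replicate 4. Leaving out 1 library gave 0 to 612 genes (6 without Ctrl replicate 3 and 612 without Ctrl replicate 4), 0 to 1 and 0 to 6. At an unadjusted p under 0.05 there were 1011 genes, 717 of them with a fold change above 1.3 or below 0.77. Without the library labelled Ctrl replicate 4, the 612, 1 and 6 calls became 1056, 1 and 13 with DESeq2, 1894, 2 and 22 with every row, and 729, 1 and 10 with the replicate block. The calls with every row included genes whose groups overlapped, Atf3 among them, and are not a sound guide. Leaving out 1 more library gave 143 to 504 genes, 0 to 1 and 2 to 6, lowest without LSD1skm-/- replicate 2, with 321 genes without Ctrl replicate 1 and 245 without LSD1skm-/- replicate 1. Unadjusted, there were 2292, or 1724 with the fold limits. Scaling by library size called 721, 88.9% of them higher against 81%, and moved the median of all genes to 0.064. The replicate number served only as a name, since deviations of same-numbered libraries correlated at -0.23 and -0.033.

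Of 417 alternative values of single genes, 370 kept direction and side of the threshold, 29 newly passed it, 13 lost it and 5 changed sign. The sign changes came from leaving out 1 library: Atf4 ranged from -0.00138 to 0.174 with all libraries and from -0.0196 to 0.152 without the library labelled Ctrl replicate 4, Atf5 then from -0.0524 to 0.144 and Psat1 from -0.341 to 0.116, with 0.0112 without Ctrl replicate 1. The cause was not tested. Leaving out a LSD1skm-/- library leaves 1, assumed to vary like Ctrl. The replicate block without the library labelled Ctrl replicate 4, the mean count above 10 there and the counts of the pathway list under the alternatives there were added after seeing the data. Low counts limit Trib3, Asns, Phgdh, Gdf15 and Fgf21.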
